A study of Mus musculus with 2 samples.

Results

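The interleukin 1 (IL-1) family and its receptors were followed here as 10 genes, Il1a, Il1b, Il1rn, Il1r1, Il1r2, Il1rap, Il1rl1, Il33, Il18 and Il18bp, taken by symbol from a table of 20003 genes. All 10 were found, and all 10 reached the floor of 1 CPM (read counts scaled to a common library size) used to compare libraries. RNA came from 2 samples, 1 per group, both labelled RAW 264.7, a mouse macrophage line, and said to be given macrophage colony-stimulating factor (M-CSF, 20 ng/mL) and then interleukin 4 (IL-4, 10 ng/mL), which drives the state called M2. By the labels one received GANT61, an inhibitor of GLI1 and GLI2, the transcription factors that end the Hedgehog pathway, at 10 µM, and the other its solvent DMSO, in both cases 4 h before IL-4. The labels give 15 min with IL-4 in one field and 24 h in another, and which of these holds for the libraries is not known. The question of the series was what Hedgehog blockade does to the macrophage transcriptome. Each group is 1 library, called below the DMSO or the GANT61 library after its label, so no difference has a replicate check. Intervals are 95% exact intervals for counting error only, no p-value is given, and the values compare these libraries, not the conditions.

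The libraries held 61632784 reads (DMSO) and 57705874 reads (GANT61). Both held markers of macrophages and of other cells. The 12 macrophage markers, all at 10 CPM or more in both libraries, summed to 3415 CPM in the DMSO and 8373 CPM in the GANT61 library. Fibroblast markers summed to 9326 and 9567 CPM, keratinocyte and epithelial markers to 3695 and 3597 CPM, and adipocyte markers to 7083 and 1169 CPM. RAW 264.7 cells are known for lacking the inflammasome adaptor ASC, yet its gene, Pycard, had 1267 and 2039 reads. These values go against a label of 1 macrophage line alone. What material the RNA came from is not known, and every value below carries that limit. In such bulk RNA a change in the number of cells of a type cannot be told apart from a change in RNA per cell.

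The family works as paired agonists and brakes. IL-1 alpha (Il1a) and IL-1 beta (Il1b) bind the receptor IL-1R1 (Il1r1), which then recruits the accessory protein IL-1RAcP (Il1rap) and signals through MyD88 and IRAK kinases to NF-kappaB. The receptor antagonist (Il1rn) occupies IL-1R1 without signalling, and the decoy receptor IL-1R2 (Il1r2) binds IL-1 but has no signalling domain. IL-33 (Il33) acts on ST2 (Il1rl1) with the same accessory protein, and IL-18 (Il18) is held back by a secreted binding protein (Il18bp). In macrophages IL-1 beta and IL-18 are made as precursors that caspase-1 cuts after an inflammasome has formed, while IL-33 is stored in the nuclei of barrier, stromal and endothelial cells.

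The promoters of the 4 genes with the largest ratios are shown because those genes differed most between the libraries. Each is given 5′ to 3′ as the 250 bases before a RefSeq start (GRCm38.p6), in lower case, with matches to 5 searched motifs in capitals. The windows are, for Il1a, chr2:129309973-129310222, minus strand, for Il1b chr2:129371140-129371389, minus strand, for Il1rn chr2:24336610-24336859, plus strand (the first of 3 RefSeq starts), and for Il1r2 chr1:40085843-40086092, plus strand (its only RefSeq start, which lies inside the longer GENCODE gene starting at 40074079).
Il1a: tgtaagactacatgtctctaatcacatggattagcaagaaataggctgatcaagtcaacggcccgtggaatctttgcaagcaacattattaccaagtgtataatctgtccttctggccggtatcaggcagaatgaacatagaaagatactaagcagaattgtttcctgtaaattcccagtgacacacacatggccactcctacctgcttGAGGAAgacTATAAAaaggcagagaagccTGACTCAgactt
Il1b: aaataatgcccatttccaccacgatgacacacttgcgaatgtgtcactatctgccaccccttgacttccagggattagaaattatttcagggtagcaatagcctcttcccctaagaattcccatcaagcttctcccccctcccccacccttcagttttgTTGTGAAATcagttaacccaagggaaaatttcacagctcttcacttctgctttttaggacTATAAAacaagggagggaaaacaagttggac
Il1rn: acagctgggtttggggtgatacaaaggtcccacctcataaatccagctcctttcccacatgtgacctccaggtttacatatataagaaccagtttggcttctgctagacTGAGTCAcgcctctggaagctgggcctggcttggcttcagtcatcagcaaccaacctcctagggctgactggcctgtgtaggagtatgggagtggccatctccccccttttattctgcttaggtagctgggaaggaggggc
Il1r2: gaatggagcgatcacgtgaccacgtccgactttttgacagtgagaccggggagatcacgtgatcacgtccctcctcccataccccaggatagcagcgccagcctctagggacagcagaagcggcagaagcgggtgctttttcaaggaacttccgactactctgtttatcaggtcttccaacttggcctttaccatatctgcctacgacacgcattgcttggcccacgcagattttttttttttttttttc

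The motifs, searched on both strands, were the TATA box TATAAA, the C/EBP core TTNNGNAAT, the AP-1 site TGANTCA, the PU.1 core GAGGAA and the 10-base NF-kappaB consensus. Il1a and Il1b both held a TATA box at the usual distance, 32 to 27 and 31 to 26 bases before the start. A TATA box stood in 12.4% of 32851 promoter windows of the same length. Il1a also held a PU.1 core 41 to 36 bases and an AP-1 site 12 to 6 bases before the start; these motifs occurred in 23.3% and 6.75% of windows. Il1b held a C/EBP core 91 to 83 bases before the start, a motif found in 10.2% of windows. Il1rn held an AP-1 site 141 to 135 bases before its first start, and the Il1r2 window held none of the 5. Over all 10 genes, which have 15 RefSeq starts, 4 genes had a TATA box in a window, 4 a C/EBP core, 2 an AP-1 site, 1 a PU.1 core and 1, Il1r1, the NF-kappaB consensus, which overlapped a C/EBP core there and occurs in 7.25% of all windows. These matches describe letters in the windows and were not tied to the measured levels.

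Between the libraries the 10 genes split into those that were higher in the GANT61 library by the rule below and those that did not pass it. Of the 10 genes, 6 were higher in the GANT61 library and 0 were lower, beside 14.1% of 13939 genes higher and 10.3% lower over the whole table. A gene was called higher where its ratio was at least 1.5, its interval excluded 1 and its mean was at least 1 CPM. The higher genes were Il1a, Il1b, Il1rn, Il1r2, Il1rl1 and Il1rap, with ratios from 2.45 to 9.32, and Il1r1, Il18bp, Il33 and Il18 had ratios from 1.03 to 1.30. The median log2 ratio of the 10 was 1.33, beside -0.01 for all genes considered. None of the 10 genes lay between 1.30 and 2.45.

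**Figure D1:**
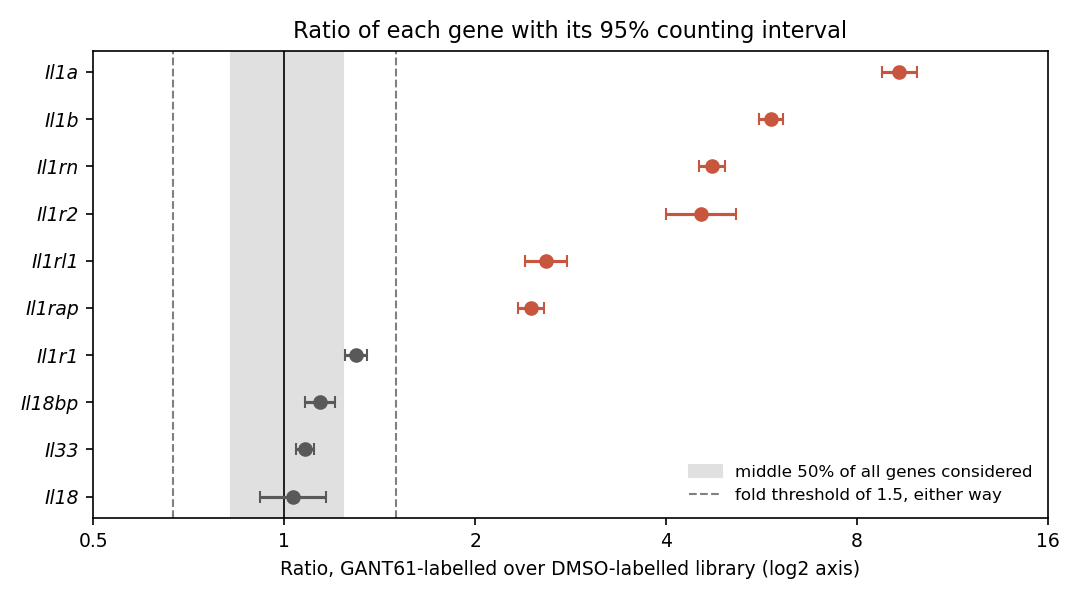
Ratio of the GANT61 to the DMSO library for each of the 10 genes (log2 axis), with bars for the 95% counting interval, dashed lines at a ratio of 1.5 either way and the middle 50% of all genes considered in grey. The 6 genes in red, Il1a at 9.32 down to Il1rap at 2.45, lie right of the line, and the 4 in grey lie between 1.03 and 1.30.

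Il1a, a cytokine that acts both from the cell surface and as an alarm signal of dying cells, had 1106 reads in the DMSO library and 9367 in the GANT61 library. After TMM scaling (edgeR's trimmed mean of M values) this is 17.7 CPM (16.6 to 18.7) and 165 CPM (162 to 168). Its ratio of 9.32 (8.76 to 9.94) was the 26th largest of the 13939 genes considered. Il1b, the main secreted IL-1 of macrophages, had 2500 and 13299 reads, or 39.9 CPM (38.4 to 41.5) and 234 CPM (230.1 to 238). Its ratio was 5.86 (5.61 to 6.12), the 99th largest. The 2 agonists did not move by the same factor: reads of Il1a per read of Il1b were 1.59 times as many in the GANT61 library (1.48 to 1.72), a comparison within libraries that needs no scaling. The genes lie near each other on chromosome 2, on the minus strand, Il1a at 129299610 to 129309972 and Il1b at 129364570 to 129371139 (GRCm38, GENCODE M21).

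Il1rn, whose product competes with both agonists for IL-1R1, was at 32.8 CPM (31.4 to 34.2) in the DMSO and 155 CPM (152 to 158) in the GANT61 library, from 2051 and 8799 reads. Its ratio was 4.72 (4.50 to 4.96), so that the antagonist was higher by a smaller factor than either agonist. Per length, on the deposited RPKM scale, Il1rn stood at 1.36 times the level of Il1a in the DMSO library and at 0.689 times in the GANT61 library. Against Il1b it stood at 0.411 and 0.331 times. These level ratios rest on the gene lengths behind the deposited RPKM, which are not given. Merged GENCODE M21 exons span 5535 bases for Il1rn and 1974 for Il1a, but the lengths used may differ. Whether Il1rn stood above Il1a in the DMSO library is thus not settled. The same limit holds for the level ratios of the other pairs below, but not for changes between libraries. The change of Il1rn per Il1a was 0.507 (0.468 to 0.548) and that of Il1rn per Il1b 0.806 (0.756 to 0.861). Neither interval reached 1. Il1rn has separate starts for a secreted and for intracellular forms, which counts per gene do not tell apart; it lies on chromosome 2 at 24336853 to 24351494, plus strand, far from Il1a and Il1b.

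Il1r2, the decoy receptor, had the fewest reads of the 10 genes in the DMSO library, 309, against 1274 in the GANT61 library. This is 4.94 CPM (4.40 to 5.52) and 22.4 CPM (21.2 to 23.7). Its ratio was 4.54 (4.01 to 5.16). Il1r1, the signalling receptor for the same ligands, had 4547 and 5362 reads, or 72.7 CPM (70.6 to 74.8) and 94.4 CPM (91.8 to 96.9). Its ratio of 1.30 (1.25 to 1.35) was beyond counting error and below the threshold. Per length, Il1r2 stood at 0.195 times Il1r1 in the DMSO and 0.683 times in the GANT61 library, a change of 3.50 (3.07 to 4.00), the largest of the 7 pairs compared. Il1rap, the accessory protein shared by the IL-1, IL-33 and IL-36 receptors, had 2426 and 5399 reads, or 38.8 CPM (37.2 to 40.3) and 95.01 CPM (92.5 to 97.6). Its ratio was 2.45 (2.34 to 2.57). Il1r1 per Il1rap thus went from 4.13 to 2.19 on the RPKM scale, a change of 0.530 (0.498 to 0.564). The gene also makes a soluble form, which these counts hold together with the membrane form.

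Of the 4 members belonging to the IL-33 and IL-18 branches alone (Il33, Il1rl1, Il18 and Il18bp), Il1rl1 was called higher. Il33 was the most abundant member in the DMSO library, with 7797 reads there and 7636 in the other, or 125 CPM (122 to 127) and 134 CPM (131 to 137), a ratio of 1.08 (1.04 to 1.11). Its receptor Il1rl1, found on mast cells, innate lymphoid cells and some macrophages and also secreted as a decoy, had 984 and 2312 reads, or 15.7 CPM (14.8 to 16.7) and 40.7 CPM (39.0 to 42.4), a ratio of 2.59 (2.40 to 2.79). Per length Il1rl1 stood at 0.0485 times Il33 in the DMSO and 0.116 times in the GANT61 library, a change of 2.40 (2.21 to 2.60). Il18 had 565 and 530 reads, or 9.03 CPM (8.30 to 9.80) and 9.33 CPM (8.55 to 10.2). Its ratio of 1.03 (0.916 to 1.17) was not distinguishable from 1 at this depth. Il18bp had 2683 and 2774 reads, or 42.9 CPM (41.3 to 44.5) and 48.8 CPM (47.0 to 50.7), a ratio of 1.14 (1.08 to 1.20). Il18bp per Il18 was 4.16 in the DMSO and 4.58 in the GANT61 library on the RPKM scale, and the interval of the change, 0.966 to 1.26, held 1. The other 6 intervals did not.

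**Figure D2:**
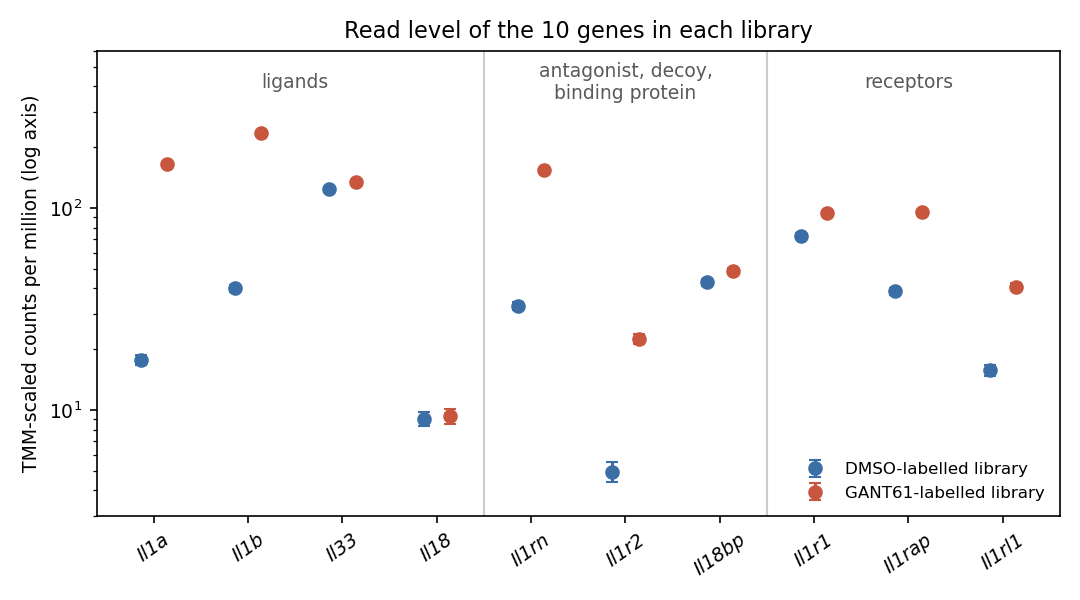
TMM-scaled CPM of each gene in the DMSO (blue) and GANT61 (red) library on a log axis, with bars for the 95% counting interval where wider than the point. Il1a goes from 17.7 to 165 CPM and Il1b from 39.9 to 234 CPM, while Il33 (125 and 134 CPM) and Il18 (9.03 and 9.33 CPM) stay close. Heights of different genes are not comparable here, since longer genes give more reads.

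Compared per length, the order of the 10 genes differed between the libraries. The order within a library rests on the gene lengths behind the deposited RPKM, which are not given. Other lengths could move genes past their neighbours, also where counting intervals do not overlap. The shares and percentiles below carry the same limit. In the DMSO library Il33 led at 36.2 RPKM, followed by Il1b at 23.5 and Il18bp at 22.9, whose counting intervals overlapped. Il1r1 (11.4), Il1rn (9.66), Il1a (7.10), Il18 (5.52), Il1rap (2.77), Il1r2 (2.24) and Il1rl1 (1.76) followed, each apart from its neighbours beyond counting error. In the GANT61 library Il1b led at 137 RPKM, followed by Il1a at 66.0, Il1rn at 45.5, Il33 at 38.9, Il18bp at 26.0 and Il1r1 at 14.8. Il1r2 at 10.1, Il1rap at 6.76, Il18 at 5.68 and Il1rl1 at 4.53 came last, and no neighbours overlapped. Il1a thus stood sixth in one library and second in the other, and Il1rl1 was lowest in both. The summed RPKM of the 10 was 123 and 355, of which Il1a and Il1b together made up 24.8% and 57.1%. Among all genes considered, Il1b stood above 80.6% of genes in the DMSO library and 97.1% in the GANT61 library, Il1a above 49.5% and 93.5%, and Il33 above 87.6% and 88.5%.

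**Figure D3:**
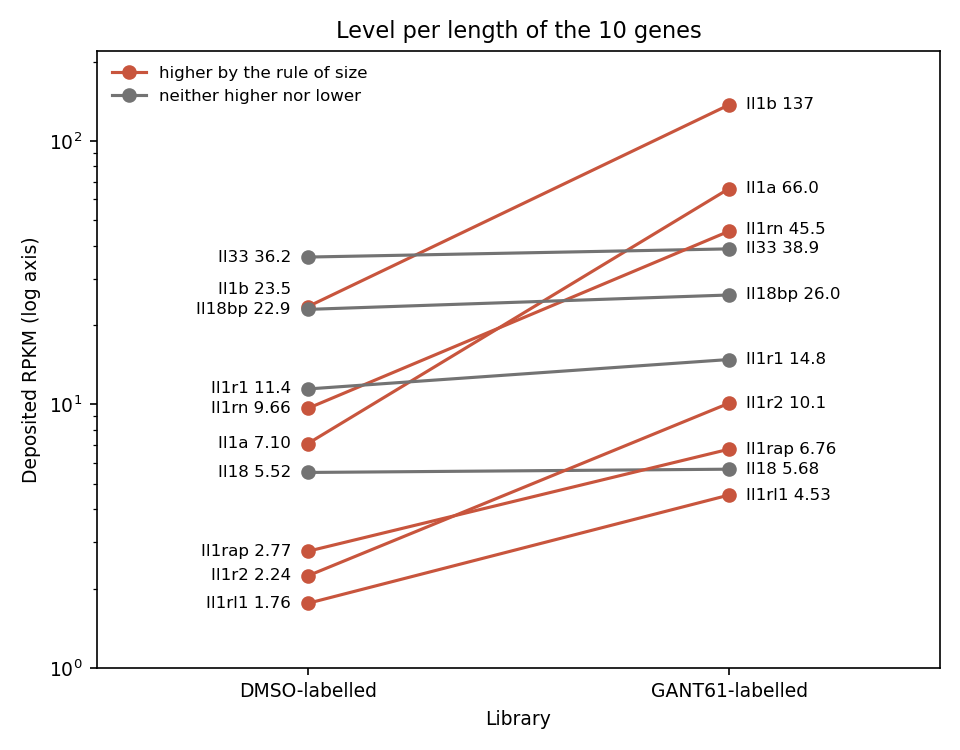
Deposited RPKM of each gene (log axis) in the DMSO library on the left and the GANT61 library on the right, with a line per gene, red for the 6 called higher and grey for the other 4. Il1b and Il1a end at 137 and 66.0, above Il33 at 38.9, which was the highest on the left at 36.2.

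**Figure D4:**
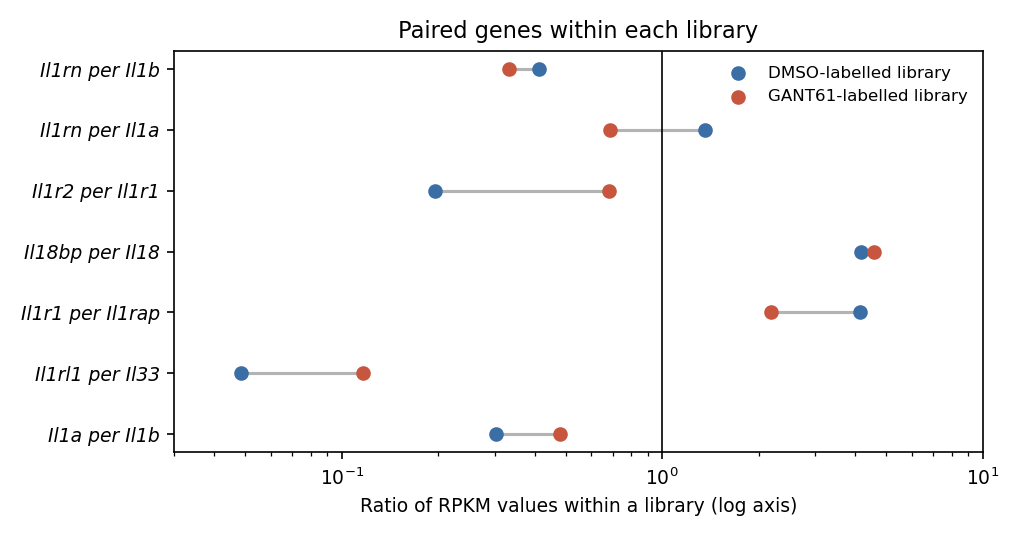
Ratio of the RPKM values of 7 gene pairs within the DMSO (blue) and the GANT61 (red) library, on a log axis with a line at 1. Il1rn per Il1a lies on either side of 1 (1.36 and 0.689), Il1r2 per Il1r1 goes from 0.195 to 0.683, and Il18bp per Il18 is close in both (4.16 and 4.58). Which side of 1 a ratio lies on depends on the gene lengths behind RPKM, but the shift between libraries does not.

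The rest of the family was measured from a list of 5 further ligands and 6 further receptors. Of the ligands, Il36g and Il36rn reached 1 CPM and both were higher. Il36g, an epithelial cytokine of the IL-36 branch, had 134 and 699 reads, a ratio of 5.73 (4.77 to 6.96). Il36rn, the antagonist of that branch, had 122 and 317 reads, a ratio of 2.85 (2.32 to 3.56). Il36a, with 15 and 49 reads, and Il36b, with 14 and 36, lay under the floor, and without the floor they too would be called, giving 4 of 5. Il1f10 was under 10 reads in both libraries. Of the receptors 4 reached 1 CPM, 2 were higher and 0 lower: Il18rap, the accessory chain for IL-18, at 26.9 and 54.2 CPM with a ratio of 2.02 (1.90 to 2.14), and Il1rl2, the IL-36 receptor, at 18.9 and 29.5 CPM with a ratio of 1.57 (1.45 to 1.69). At a threshold of 2 the second was no longer called. Il18r1, the ligand-binding IL-18 receptor chain, had a ratio of 1.40 (1.32 to 1.49) and Sigirr, an inhibitory receptor, of 0.907 (0.844 to 0.975). On chromosome 1 a row of 6 receptor genes on the plus strand runs from Il1r2, starting at 40074079, through Il1r1, Il1rl2, Il1rl1 and Il18r1 to Il18rap, ending at 40551705. Of these neighbours 4 were higher. Il1r1, between Il1r2 and Il1rl2, and Il18r1, between Il1rl1 and Il18rap, were not.

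Genes that mature the cytokines were partly higher. Of 11 inflammasome and protease genes, 7 were higher, 0 were lower and the median log2 ratio was 0.69. At a threshold of 2 there were 4. Nlrp3, the sensor most tied to IL-1 beta release, was at 6.41 and 24.4 CPM, which is a ratio of 3.80 (3.40 to 4.26). Mefv, the pyrin sensor, had a ratio of 3.49 (3.13 to 3.90), Nlrc4 of 2.28 (1.90 to 2.76), Naip5 of 2.07 (1.83 to 2.35), Pycard of 1.77 (1.65 to 1.90) and Aim2, a DNA sensor, of 1.61 (1.49 to 1.73). Casp1, which cuts both precursors, was at 123 CPM in the DMSO and 97.9 CPM in the GANT61 library, a ratio of 0.798 (0.771 to 0.826), not past the threshold.

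Of 15 signalling genes below the receptors, 1 was higher and 0 lower by the rule. Their ratios ran from 0.863 to 1.51, 12 of the 15 were above 1, and the median log2 ratio of 0.36 lay above the upper quartile of all genes considered, 0.31. The higher gene, Traf6, a ubiquitin ligase that relays the signal from IRAK kinases, had a ratio of 1.51 (1.43 to 1.60) and was not called when libraries were scaled by total reads or the upper quartile. Common IL-1 response genes, which many other stimuli also induce, were mostly higher: 12 of 14, with 0 lower and a median of 1.61. Csf3, the granulocyte growth factor G-CSF, was at 6.33 and 40.2 CPM, which is a ratio of 6.34 (5.70 to 7.08). Cxcl2, a neutrophil attractant, had a ratio of 6.03 (5.50 to 6.64), Mmp3, a stromal protease, of 4.73 (4.60 to 4.87), Il6 of 4.51 (3.59 to 5.76), Ptgs2, the prostaglandin enzyme COX-2, of 3.97 (3.75 to 4.20) and Zc3h12a of 3.21 (2.94 to 3.51). Whether these followed from IL-1 was not tested.

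Markers of several cell types moved with the family. Of 12 macrophage markers 11 were higher, with ratios from 1.63 to 5.54; Aif1, at 1.31, was not. The median log2 ratio of the 12 was 0.97. Lyz2, a lysozyme, had a ratio of 2.10 (2.09 to 2.12) and Mrc1, the mannose receptor, of 5.54 (5.46 to 5.62). At a threshold of 2 there were 6. Mrc1 was then left out only for having the highest ratio, so the range without it ends lower by construction. The other 11 markers ran from 1.31 to 3.36, the highest being Cd68. The ratios of Il1rap and Il1rl1 lay within that range. Those of Il1r2 and Il1rn lay above all 11 and below Mrc1, and those of Il1b and Il1a above all 12. Neutrophil markers, 8 of 12 at 1 CPM, had 6 higher and 1 lower, and their sum went from 192 to 857 CPM. The 6 higher had ratios from 4.01 to 9.95, a range that held those of Il1r2, Il1rn, Il1b and Il1a. Ltf was at 93.1 and 403 CPM and S100a9 at 27.8 and 184 CPM. The 1 lower was Ngp, with 123 and 65 reads and a ratio of 0.584 (0.424 to 0.792). Retnlg, with a ratio of 1.12, was neither higher nor lower. Under the floor lay Elane, with 6 and 3 reads, Mpo, with 39 and 22, Camp, with 21 and 11, and Ly6g, with 13 and 31. No measured gene of the marker lists had 0 reads in both libraries. Neutrophils are a known source of Il1r2 and Il1b. Their part, and that of macrophage number, in the higher family genes was not tested.

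Cells known for Il33 and Il1rl1 gave other values. Fibroblast markers, led by Col3a1 (3044 and 3394 CPM) and Col1a2 (1900 and 2057 CPM), had 0 of 10 higher and 1 lower, with ratios from 0.613 to 1.32 beside 1.08 for Il33. Endothelial markers had 1 of 10 higher and 2 lower, and sums of 861 and 796 CPM, with Pecam1 at 197 and 217 CPM and Eng at 158 and 124 CPM. The part of fibroblasts, endothelial or epithelial cells in the Il33 level was not tested. Epithelial markers had 6 of 12 higher and 1 lower, and the called genes of stratified and of simple epithelium moved apart. The 6 higher are genes made by keratinocytes, but the values do not show which epithelial cells the reads came from. They were Krt6a, a keratin of wounded skin, with a ratio of 7.31 (6.48 to 8.29), Krt5 of 3.13 (102 and 319 CPM), Ivl of 2.31, Trp63 of 2.04, Krt1 of 1.93 and Krt10 of 1.59. Krt14, also made by keratinocytes, was at 324 and 428 CPM, a ratio of 1.32, and was not called. Of the keratins of simple epithelium, Krt18 was at 946 and 551 CPM, the 1 called lower, and Krt8 at 796 and 571 CPM. Keratinocytes are a known source of Il1a, Il1rn and Il36g, and their part was not tested. Mast cell markers summed to 154 and 163 CPM, with 3 of 10 higher and 1 lower. The higher were Hdc with a ratio of 4.29, Ms4a2 of 3.69 and Fcer1a of 2.44. The lower was Tph1, at 48.5 and 2.53 CPM, and Kit was at 31.9 and 31.2 CPM. Without Tph1, left out after its values were seen, the other 9 summed to 105 and 160.5 CPM, a ratio of 1.53. T cell, natural killer cell and innate lymphoid markers had 2 of 10 higher and 1 lower, with Gata3 at 118 and 69.7 CPM and Il7r at 24.5 and 57.2 CPM. The list named 11 genes, but Trbc2, a T cell marker, was not among the genes measured. The summed level of the mast cell list thus changed by a ratio of 1.06 with Tph1 and 1.53 without it, beside 2.59 for Il1rl1. That of the lymphoid list changed by 0.891, from 295 to 263 CPM. Gata3, its 1 lower gene, held 118 and 69.7 CPM of these sums, and no sum without Gata3 was made. The part of mast and lymphoid cells was not tested. All 10 adipocyte markers were lower, the most abundant being Car3 (2207 and 294 CPM) and Fabp4 (1802 and 286 CPM).

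**Figure D5:**
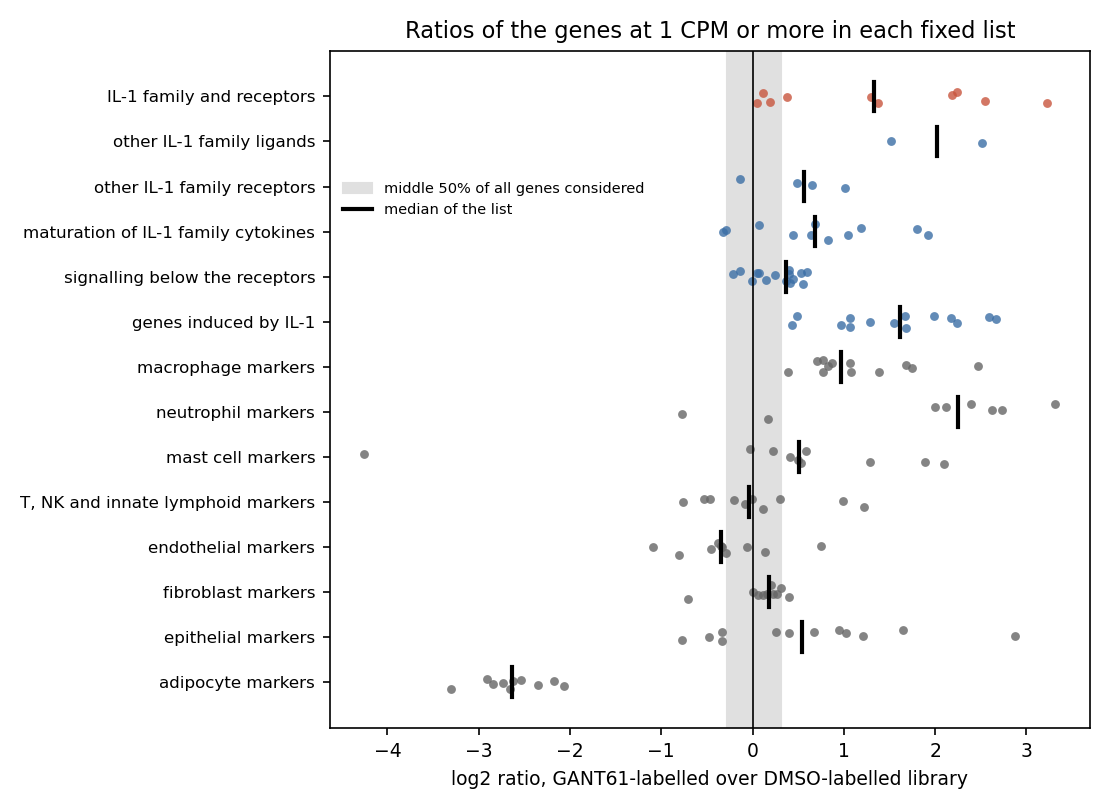
log2 ratio of the GANT61 to the DMSO library for each gene at 1 CPM or more in the fixed lists, 1 point per gene, black bars for medians, grey for the middle 50% of all genes considered, and vertical scatter for visibility only. The family (red) has a median of 1.33, the macrophage markers of 0.97, the neutrophil markers of 2.25 and the adipocyte markers of -2.64.

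The remaining genes are spread over the genome: Il1r1 at 40225080 to 40317257 and Il1rl1 at 40429570 to 40465415 on chromosome 1, Il18bp at 102014885 to 102018690 on chromosome 7 (minus strand), Il18 at 50554827 to 50581840 on chromosome 9, Il1rap at 26581704 to 26730117 on chromosome 16 and Il33 at 29925114 to 29960718 on chromosome 19, on the plus strand unless stated (GRCm38, GENCODE M21). All are protein-coding, and the counts are per gene. Overlap with other genes touched 4 members. Exons of Il1a share 222 bases with an opposite-strand transcript, those of Il1b 25 with Il1bos, those of Il1rap 552 with another antisense gene and those of Il18bp 80 with Numa1. The strand setting of the counts is not given in the sources used here, so reads in those stretches may not have been told apart. The antisense partners were counted at 11 and 30, 10 and 40, and 1 and 1 reads. Numa1 had 10522 and 9583 reads, more than Il18bp itself, with a ratio of 1.003.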

How the data were processed

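The authors deposited expected counts per gene, without normalization, and RPKM values (reads scaled to gene model length and library size), with 1 column per library, for 1 GANT61-labelled and 1 DMSO-labelled library. In the deposited counts 29.8% (DMSO) and 29.5% (GANT61) of values were not whole, and they were rounded first. The submitters' processing notes list the builds hg19 and mm10 and the tools Partek, SAMtools, cutadapt, HISAT2 and STAR; the counter, annotation and strand setting are not given in the sources used here. Columns were tied to libraries by the treatment in their names.

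Counts were scaled over the whole table by TMM in edgeR 4.0.16 (R 4.3.3). Ratios used a prior count of 0.5, with 95% Clopper-Pearson intervals; pair changes used exact conditional odds ratio intervals (scipy 1.17.1). Intervals cover counting error alone: PCR copies were not told apart by molecular identifiers. A count of 0 would allow 3 counts, 0.0479 CPM (DMSO) or 0.0528 CPM (GANT61). No test was possible with 1 library per group. The calculation was tested on simulated counts, with the changed genes drawn well above the 1 CPM floor; an earlier draw with changed genes nearer the floor missed some that the floor removed. Alternatives were DESeq2 1.42.0 size factors, total reads, upper quartile, a prior count of 5, RPKM, no floor and a threshold of 2.

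The members and lists were chosen with earlier results of these data known. The text names all 10 members. From each pathway list it names up to 6 called genes by size of ratio, or, where none is called, the 2 most abundant, and from each marker list the 2 most abundant. Pycard, Casp1, Krt6a, Krt5, Krt14, Ivl, Trp63, Krt1, Krt10, Hdc, Ms4a2, Fcer1a, Cd68 and Aif1 were named after their values were seen. So were Il18r1, Sigirr, Ngp, Retnlg, Elane, Mpo, Camp, Ly6g, Il36a and Il36b. No genes are named as most like a member, since 2 libraries give 1 ratio per gene. Positions come from GENCODE M21 and promoters from RefSeq, both GRCm38; all 10 members matched. Protein sequences were not used here.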

Additional observations from a re-analysis of the deposited data

How the results depend on the processing

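The 6 higher and 0 lower members were the same count under DESeq2 size factors, total reads, upper quartile scaling, a prior count of 5, deposited RPKM values, no floor and a threshold of 2. Over the scalings and priors, the ratio of Il1a ran from 9.04 to 9.32, Il1b from 5.68 to 5.86, Il1rn from 4.58 to 4.72, Il1r2 from 4.40 to 4.54, Il1rl1 from 2.51 to 2.59, Il1rap from 2.38 to 2.45, Il1r1 from 1.26 to 1.30, Il18bp from 1.10 to 1.14, Il33 from 1.05 to 1.08 and Il18 from 1.002 to 1.03. Over the whole table the threshold of 2 gave 972 genes higher and 595 lower, in place of 1972 and 1436, because it is stricter. The 7 pair changes stayed within their intervals with RPKM values and with a prior count of 5. No paired analysis was possible because each group has 1 library, and for the same reason no replicate could be left out. Il1r2, with the fewest reads of the 10 genes in the DMSO library, had an interval of 4.01 to 5.16. The interval of Il18, 0.916 to 1.17, held 1.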
